A study of Homo sapiens with 2 samples.

Results

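The genes described here are the amino acid transporters of 6 solute carrier (SLC) families: SLC1A, SLC3A, SLC7A, SLC36A, SLC38A and SLC43A. They were taken by symbol, as every gene of these families with a number, and there were 40 among the 24462 gene symbols of the series. RNA was sequenced from human embryonic stem cells (hESC) of the line H9, kept undifferentiated, as 1 library. The other library came from neural precursor cells (NPC) grown out of H9 hESC in culture with MS5 feeder cells. H9 is an established pluripotent line, so both groups come from the same line, and MS5 is a mouse bone marrow stromal line. How feeder cells were kept out of the NPC sample is not given in the sources used here. With 1 library in each group there is no replicate check. All values below compare these 2 libraries. Intervals cover counting error only, except that of a median over genes, which reflects the spread between genes.

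Amino acids are charged and polar and cross membranes on carriers. Exchangers of the SLC7 family trade an amino acid inside the cell for another outside, and most of them reach the cell surface only when bound to a heavy chain of the SLC3 family. SLC1 and SLC38 carriers depend on sodium and move glutamate, or glutamine and other neutral amino acids. SLC36 carriers use protons, and SLC43 carriers are passive. In brain, the glutamate carriers of astroglia clear the transmitter from synapses, and in dividing cells SLC1A5 and the SLC7A5 and SLC3A2 pair are known for their part in glutamine and leucine uptake and in mTORC1 signalling. Several transporter genes are targets of ATF4, the transcription factor of the amino acid starvation response, which binds CARE sequences together with C/EBP proteins.

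Counted reads came to 19669442 for hESC and 24040080 for NPC. Where a pair of values is given, that of the hESC library comes first. Levels are given in CPM, reads scaled to the effective library size, where a gene with 0 reads could still be at 0.173 CPM in hESC and 0.110 CPM in NPC. The labels fitted the markers in part: all 7 pluripotency markers were lower in the NPC library (POU5F1 with 21886 reads and 18), and 5 of 7 measured neural progenitor markers were higher, while SOX2 and NES differed by less than 2-fold. Of 8 neuron markers 6 were higher, TUBB3 was not called and RBFOX3 was lower (396 and 59 reads). Of 7 measured stroma and fibroblast markers 4 were higher and 2 lower, with summed levels of 769 CPM and 977 CPM. COL3A1 had 11 and 7837 reads, DCN 4 and 303, and LUM, below the filter, 1 and 91, while THY1 had 4635 and 639 and TAGLN 1955 and 527. The part of stromal cells in the results below was not tested. Fewer cells of a type and less RNA per cell cannot be told apart in such libraries.

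The sequences shown here are the places where a promoter of a member holds the letters TGATGNAA on either strand, the core of the CARE motif, because many of the genes below belong to the amino acid response. The promoters are RefSeq windows on GRCh38.p14, each with 250 bases before and 50 after a transcript start, and 31 of the 40 members have at least 1 window. SLC1A2, SLC38A3, SLC3A1, SLC43A3, SLC7A11, SLC7A13, SLC7A2, SLC7A3 and SLC7A4 were not matched. Each line gives the bases around the match 5′ to 3′ on the gene's strand, with the match in capitals. Promoters of ASNS and CHAC1, which are known ATF4 targets, are shown for comparison.
SLC1A4 (chr2:64989381-64989410, + strand): gcggctcccgtTTGCATCAtctccagccgg
SLC1A3 (chr5:36596357-36596386, + strand): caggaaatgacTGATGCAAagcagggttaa
SLC1A5 (chr19:46784893-46784922, - strand): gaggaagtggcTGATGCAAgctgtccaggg
SLC3A2 (chr11:62881725-62881748, + strand): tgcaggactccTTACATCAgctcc
SLC38A1 (chr12:46266502-46266531, - strand): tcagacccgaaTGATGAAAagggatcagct
SLC7A1 (chr13:29595663-29595692, - strand): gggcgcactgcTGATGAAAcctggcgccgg
ASNS (chr7:97872458-97872487, - strand): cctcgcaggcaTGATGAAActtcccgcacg
CHAC1 (chr15:40953251-40953280, + strand): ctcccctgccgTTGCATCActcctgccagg

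Measured from the transcript start, the first base of the match lay at -7 in SLC1A4, -220 in SLC1A3, -97 in SLC1A5, 38 in SLC3A2, -4 in SLC38A1 and 8 in SLC7A1. In SLC3A2 and SLC7A1 the match is therefore inside the transcribed part. SLC1A5 has 3 starts in the table and its match belongs to 1 of them, as do those of SLC1A3 and SLC3A2 among 3 and those of SLC1A4 and SLC38A1 among 2. In all, 6 of the 31 matched members held the letters (19.4%), against 1217 of 27305 gene symbols in the table (4.46%), or 6 of 53 windows (11.3%) against 3.62% of all windows. The 6 members with a match went both ways, with SLC1A3 and SLC1A4 higher in the NPC library and SLC1A5, SLC3A2, SLC38A1 and SLC7A1 lower. A match of letters is not a measured binding site.

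Amino acid transporter genes were lower in the NPC library in more cases than they were higher. Of the 40 members, 31 were measured, meaning at least 5 CPM in either library. A call needed the whole 95% counting interval of a gene's ratio to lie at least 2-fold above or below equal levels. By this rule 15 members (48.4%) were lower and 4 (12.9%) were higher in the NPC library, where 19.8% of all 13535 measured genes were lower and 19.6% higher (39.4% in either direction). Among 190 measured SLC genes of other families, 42 (22.1%) were lower and 36 (18.9%) higher. The median log2 ratio, NPC over hESC, was -1.12 over the measured members, -0.09 over all measured genes and -0.12 over the other SLC genes. Ratios varied widely between members, and the rank-based 95% interval of their median (-2.66 to 0.249) held the other medians. Members that passed the filter in 1 library only could not have been called in the other direction: 6 passed in the hESC library alone and 3 in the NPC library alone. Among the 22 that passed in both, 9 were lower and 2 higher, against 1854 lower and 1388 higher of the 10804 genes that passed in both. With scaling by the library total, which adds 0.36 to every log2 ratio, 13 members were lower and 7 higher of 30, where 13.2% of all measured genes were lower and 27.0% higher. The share of member calls that were higher then was 35% in place of 21.1%, and it moved with that of all genes.

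The members together took 43074 reads of the hESC library, 0.219% of it (exact 95% interval 0.217 to 0.221), and 23752 reads of the NPC library, 0.0988% (0.0976 to 0.100). Most of this difference lay in 5 members chosen by their hESC reads. That choice by itself favours a larger share in the hESC library. SLC38A1, SLC3A2, SLC7A8, SLC1A5 and SLC7A5, the members with most hESC reads, held 68.8% of the member reads in the hESC library (68.4 to 69.3) and 35.6% in the NPC library (35.0 to 36.2). Their summed level was 1705 CPM against 310.4 CPM, while the other 35 members summed to 773 CPM and 563 CPM.

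**Figure D1:**
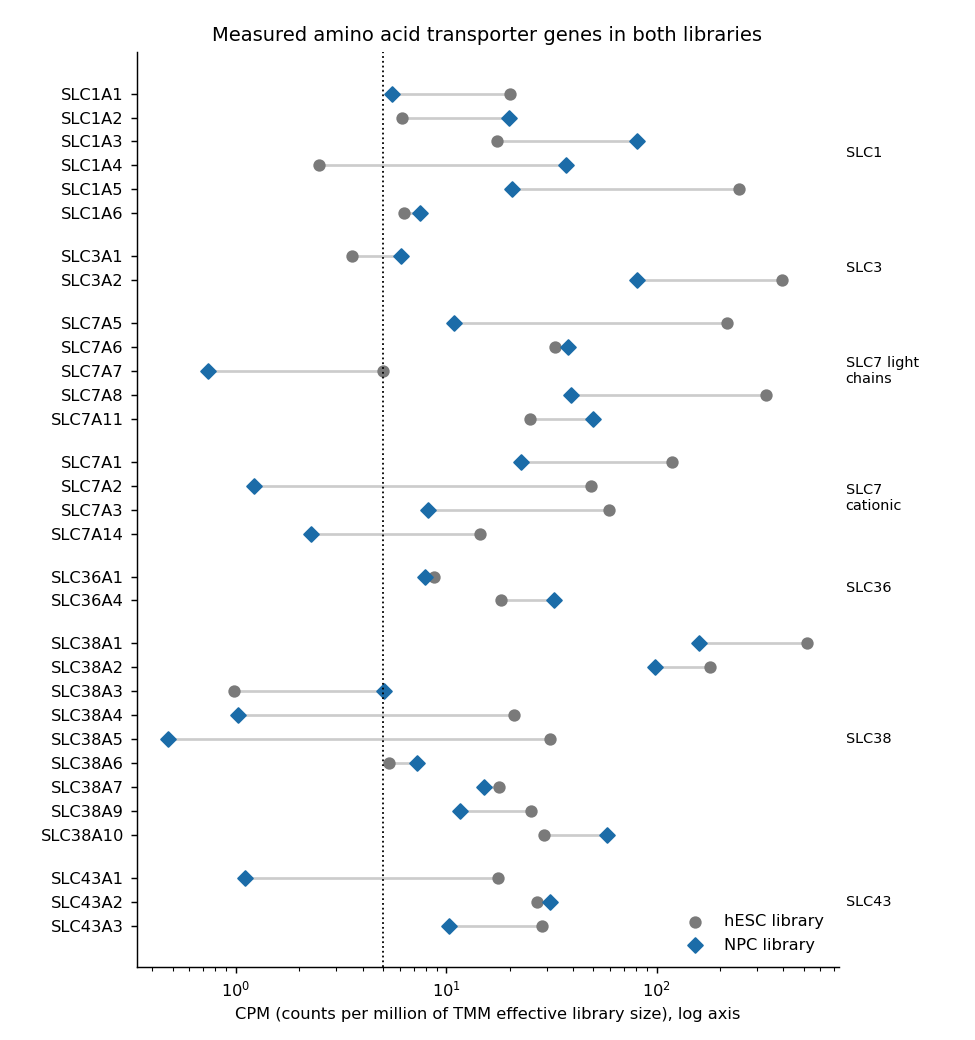
Level of each measured member in the hESC library (circles) and the NPC library (diamonds), in CPM on a log axis, ordered by family and role. The dotted line marks the filter of 5 CPM. SLC38A1, SLC3A2 and SLC7A8 are highest in the hESC library, and SLC1A4 lies far to the right of its own hESC level in the NPC library.

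In the SLC1 family, 3 of 6 measured members were higher and 2 lower, against 19.6% and 19.8% of all measured genes. Its neutral amino acid exchangers went opposite ways. SLC1A5, which encodes the glutamine exchanger ASCT2, had 4297 reads (247 CPM) in the hESC library and 558 reads (20.5 CPM) in the NPC library. It was 12-fold lower (11 to 13.2). SLC1A4, which encodes the related exchanger ASCT1 for alanine, serine and cysteine, had 43 reads (2.47 CPM) and 1008 reads (37.1 CPM). It was 14.8-fold higher (11 to 20.8). The number of SLC1A4 reads for each SLC1A5 read went from 0.0100 to 1.81, a 180-fold difference (131 to 254) that does not depend on library scaling. This ratio and the other within-library ratios below were chosen after their values were seen. Per kb of the longest transcript, SLC1A5 stood at 85.8 and 7.12 CPM per kb and SLC1A4 at 0.427 and 6.40 CPM per kb. Per kb of the median transcript length, SLC1A5 stood at 136.5 and 11.3 and SLC1A4 at 2.03 and 30.4 CPM per kb, so their order in the NPC library depends on the length used. In the hESC library SLC1A5 was higher with either length.

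The glutamate carriers of glia were higher and that of neurons and epithelia was lower. SLC1A3, the gene of EAAT1 or GLAST, which radial glia and astroglia express, had 304 and 2196 reads (17.5 and 80.7 CPM). SLC1A2, the gene of EAAT2 or GLT-1, the main carrier of mature astroglia, had 107 and 541 reads (6.16 and 19.9 CPM). It was 3.22-fold higher (2.62 to 4.01), with a log2 ratio of 1.69, and was not called after removal of the trend of ratios with transcript length (1.28). SLC1A1, the gene of EAAT3, had 350 and 151 reads (20.1 and 5.55 CPM) and was 3.62-fold lower (2.99 to 4.42). All 6 epithelial markers were lower too, with summed levels of 2729 and 123 CPM, and their part in this was not tested. SLC1A3 reads for each SLC1A1 read went from 0.869 to 14.5, a 16.7-fold difference (13.3 to 21.1). SLC1A6, the gene of EAAT4, a carrier of Purkinje cells, had 110 and 205 reads and was not called, with a ratio of 1.19 (0.940 to 1.51). SLC1A7, the gene of the retinal carrier EAAT5, had 0 and 5 reads. In the astroglia marker list, which includes SLC1A2 and SLC1A3, 3 of 5 measured genes were higher and 2 lower, and its levels summed to 497 CPM for hESC and 307 CPM for NPC. The third higher gene was S100B, with 14 and 1039 reads. The 2 lower genes were ALDOC, with 1099 and 163 reads, and GJA1, with 7031 and 4335 reads. The astrocyte genes GFAP (35 and 44 reads), AQP4 (45 and 15) and ALDH1L1 (12 and 13) were below the filter in both libraries.

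The heavy chain gene SLC3A2 and the light chain genes with most hESC reads were lower in the NPC library. Choosing light chains by their hESC reads by itself favours lower values in the NPC library. SLC3A2 encodes CD98 or 4F2hc, the heavy chain that carries SLC7 light chains to the cell surface. It had 6838 reads (393 CPM) in the hESC and 2186 reads (80.4 CPM) in the NPC library and was 4.89-fold lower (4.66 to 5.14). SLC7A5, the gene of LAT1, which imports leucine and other large neutral amino acids, had 3739 and 296 reads (215 and 10.9 CPM). It was 19.7-fold lower (17.6 to 22.3). SLC7A8, the gene of the related exchanger LAT2, had 5786 and 1061 reads (333 and 39.0 CPM) and was 8.53-fold lower (7.99 to 9.12). All 3 genes were thus higher in the hESC library, and SLC7A5 differed by more than its heavy chain. SLC7A5 reads for each SLC3A2 read fell from 0.547 to 0.135, a 4.04-fold difference (3.55 to 4.60).

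SLC7A5 has partial copies whose reads can be mixed with its own. The pseudogenes SLC7A5P2 and SLC7A5P1 had 87 and 9 reads in the hESC and 186 and 10 reads in the NPC library, and SLC7A5P2 was not called. SLC7A5 is also a gene of brain endothelium, where LAT1 carries amino acids across the blood-brain barrier. Of 7 endothelial markers 3 were measured (KDR, TEK and SLC2A1), 2 of them lower, with summed levels of 435 CPM for hESC and 62.4 CPM for NPC. The defining markers PECAM1, CDH5, CLDN5 and VWF lay at or below 0.748 CPM in both libraries.

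Not all light chains were lower. SLC7A11 encodes xCT, which imports cystine for glutathione synthesis in exchange for glutamate. It had 434 and 1360 reads (25 and 50 CPM), and its ratio of 2.0 (1.80 to 2.24) missed the rule by its near bound. It was called higher by the library total, with a log2 ratio of 1.36 in place of 1.0. With the length trend removed the log2 ratio of SLC7A11 was 0.64 and it was not called. SLC7A11-AS1, which overlaps it on the opposite strand, had 72 and 213 reads, and without a stated strand setting reads of the 2 cannot be told apart. SLC7A6, the gene of y+LAT2, which exports arginine in exchange for glutamine, had 573 and 1028 reads (33.0 and 37.8 CPM) and was not called, with a ratio of 1.15 (1.03 to 1.27). Its opposite-strand neighbour SLC7A6OS had 299 and 347 reads. For each SLC7A5 read, SLC7A11 reads went from 0.116 to 4.60, a 39.5-fold difference (33.6 to 46.6), and SLC7A6 reads from 0.153 to 3.47, a 22.6-fold difference (19.3 to 26.6). Per kb, the order of light chains in the hESC library was SLC7A8 (79.0 CPM per kb), SLC7A5 (47.4), SLC7A6 (5.23) and SLC7A11 (2.59). In the NPC library it was SLC7A8 (9.25), SLC7A6 (5.99), SLC7A11 (5.18) and SLC7A5 (2.40), and the counting intervals of SLC7A6 (5.63 to 6.37) and SLC7A11 (4.91 to 5.47) lay next to each other without overlap. With the median transcript length SLC7A6 came first in the NPC library (66.0 CPM per kb), before SLC7A8 (24), SLC7A11 (9.58) and SLC7A5 (2.73), and passed SLC7A5 in the hESC library (57.5 against 54). The place of SLC7A6 among the light chains is thus not set.

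**Figure D2:**
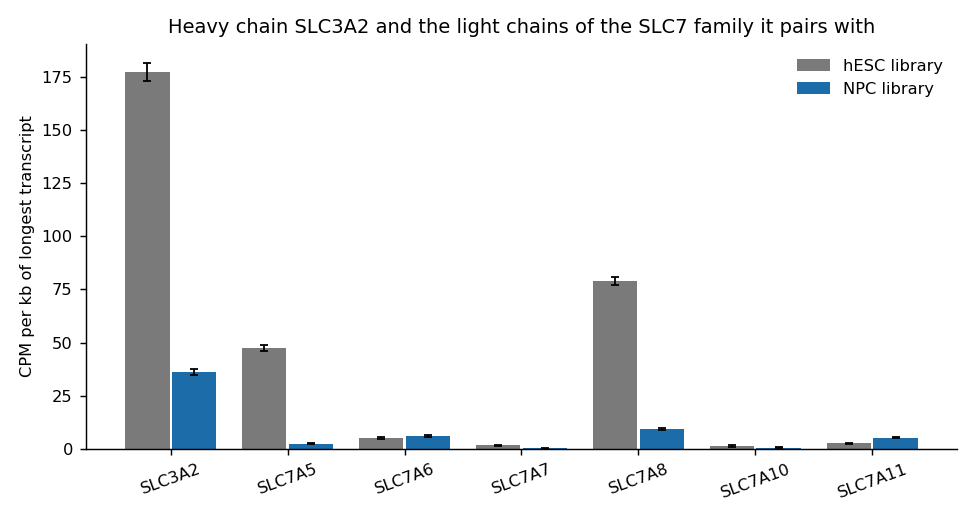
Level per kb of the longest transcript for the heavy chain gene SLC3A2 and 6 light chain genes of the SLC7 family in the hESC (grey) and NPC (blue) libraries, with 95% counting intervals. SLC3A2 stands at 177 and 36.2 CPM per kb, and SLC7A5 drops from 47.4 to 2.40 CPM per kb while SLC7A6 is at 5.23 and 5.99 and SLC7A11 at 2.59 and 5.18 CPM per kb.

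The remaining chains of this kind had few reads. SLC7A7, the gene of y+LAT1, had 87 and 20 reads. It passed the filter narrowly in the hESC library at 5.005 CPM, was 6.68-fold lower (4.15 to 11.7) and fell below the filter with the library total, with upper-quartile factors or with summed rows. SLC7A10, the gene of the neuronal serine and glycine carrier Asc-1, did not reach the filter with 42 and 34 reads. SLC3A1 encodes rBAT, the heavy chain of the renal cystine carrier, and had 62 and 166 reads (3.57 and 6.10 CPM), with a ratio of 1.70 (1.27 to 2.33) that was not called. It overlaps PREPL on the opposite strand, which had 1096 and 2625 reads. Its partner SLC7A9 had 0 and 18 reads, and SLC7A13 had none in either library.

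The carriers of cationic amino acids and their relatives were lower together. The 4 that were measured were all lower in the NPC library, and 2 of them passed the filter in the hESC library alone. SLC7A1, the gene of CAT1, the widespread importer of arginine and lysine, had 2053 and 619 reads (118 and 22.8 CPM). It was 5.19-fold lower (4.74 to 5.69). SLC7A3, the gene of CAT3, had 1035 and 223 reads (59.5 and 8.198 CPM) and was 7.25-fold lower (6.28 to 8.43). SLC7A2, the gene of CAT2, had 852 reads (49.0 CPM) in the hESC library and 33 reads (1.21 CPM) in the NPC library and was 39.8-fold lower (28.6 to 59.1). SLC7A2 was thus near the floor in the NPC library, and SLC7A1 had most reads of the group in both libraries. Per kb of the longest transcript SLC7A3 was above SLC7A1 in both (26.6 and 3.67 against 16.1 and 3.10 CPM per kb). With the median transcript length SLC7A3 was below SLC7A1 in both. SLC7A14, a lysosomal relative of these carriers, had 252 and 62 reads and was 6.32-fold lower (4.80 to 8.54). SLC7A4, a relative with no known transport of its own, had 2 and 9 reads.

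**Figure D3:**
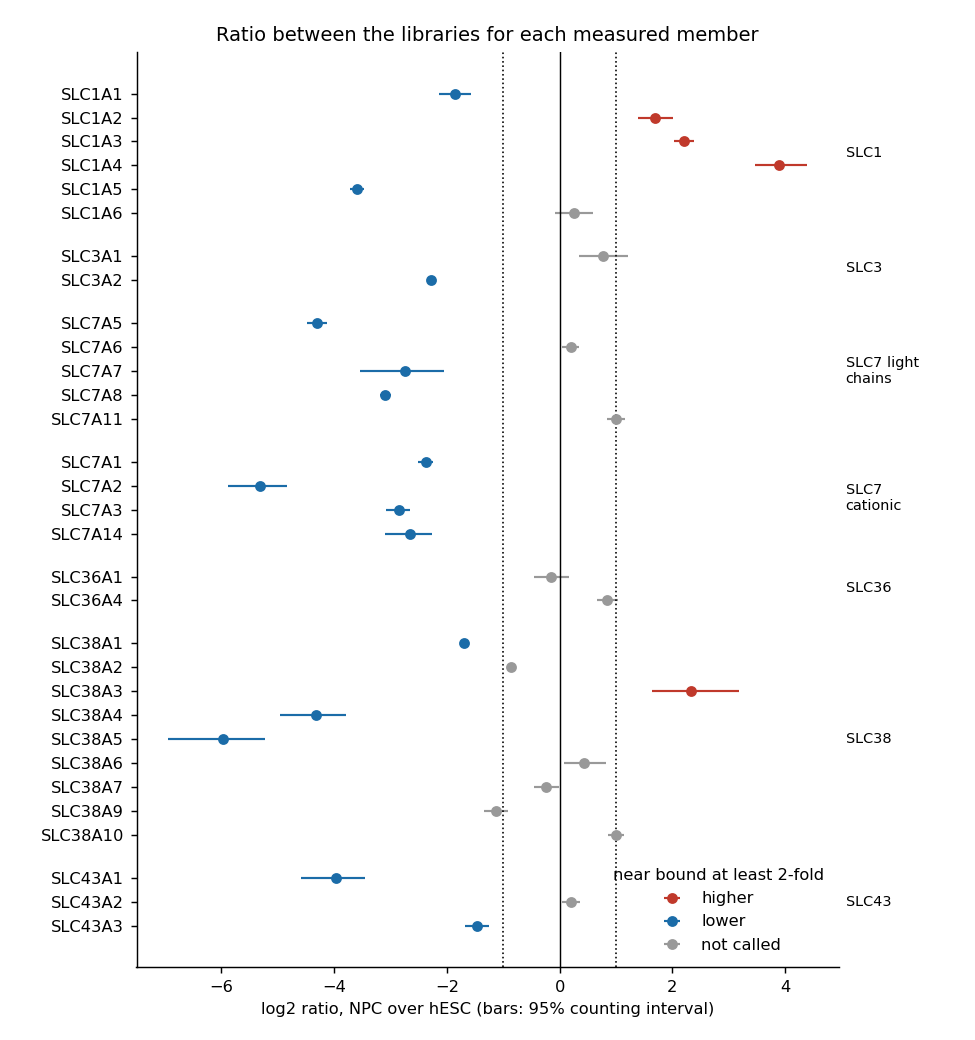
Log2 ratio, NPC over hESC, of each measured member with its 95% counting interval, coloured by call. Dotted lines mark 2-fold. All 4 cationic carriers lie to the left of the lower line, the SLC36 genes lie between the lines or touch them, and the SLC1 and SLC38 families have members on both sides.

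In the SLC38 family of sodium-coupled neutral carriers, 3 of 9 measured members were lower and 1 was higher. Over all measured genes, 19.8% were lower and 19.6% higher. Among the 6 SLC38 members that passed the filter in both libraries, 1 was lower and none higher. For all genes that passed in both, it was 1854 and 1388 of 10804. SLC38A1, the gene of SNAT1, an importer of glutamine and alanine found in neurons, had 8982 reads (517 CPM) in the hESC library and 4344 reads (160 CPM) in the NPC library and was 3.24-fold lower (3.12 to 3.36). SLC38A2, the gene of SNAT2, which is known to be induced by amino acid starvation, had 3116 and 2675 reads (179 and 98.3 CPM), a ratio of 0.549 (0.521 to 0.578) that was not called. SLC38A4, the gene of SNAT4, an imprinted carrier of liver and placenta, had 364 and 28 reads (20.9 and 1.03 CPM) and was 20-fold lower (13.8 to 31.1). SLC38A1, SLC38A2 and SLC38A4 follow each other on chromosome 12 with no protein-coding gene between them in RefSeq (GRCh38.p14), and their ratios differed from each other by more than their counting intervals.

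The system N carriers, which move glutamine, asparagine and histidine in either direction, went opposite ways. SLC38A5 passed the filter in the hESC library alone and SLC38A3 in the NPC library alone. Each could thus have been called in 1 direction only. SLC38A5, the gene of SNAT5, had 540 reads (31.1 CPM) in the hESC and 13 reads (0.478 CPM) in the NPC library. At 62.7-fold lower (37.7 to 123) it had the lowest ratio of the measured members. SLC38A3, the gene of SNAT3, a glutamine exporter of astrocytes, had 17 and 137 reads (0.978 and 5.04 CPM) and was 5.02-fold higher (3.10 to 9.10). It stood just above the filter and fell below it with DESeq2 size factors. SLC38A3 reads for each SLC38A5 read went from 0.0315 to 10.5.

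The remaining measured SLC38 members did not pass the rule. SLC38A9, a lysosomal arginine sensor upstream of mTORC1, had 440 and 316 reads (25.3 and 11.6 CPM), a ratio of 0.459 (0.396 to 0.531) that was not called. SLC38A7, which exports glutamine from lysosomes, had 309 and 411 reads with a ratio of 0.850 (0.732 to 0.988). SLC38A10 had 506 and 1578 reads (29.1 and 58.0 CPM), a ratio of 1.99 (1.80 to 2.21), and was called higher by the library total (log2 ratio 1.35 against 0.99). SLC38A6 had 93 and 198 reads and was not called, and TRMT5, which overlaps it on the opposite strand, had 557 and 457. SLC38A8 had 0 and 2 reads and SLC38A11 had none.

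No SLC36 gene passed the rule. SLC36A1, the gene of the lysosomal proton-coupled carrier PAT1, had 152 and 215 reads (8.74 and 7.90 CPM), a ratio of 0.903 (0.731 to 1.12). SLC36A4, a carrier of proline and tryptophan, had 315 and 883 reads (18.1 and 32.5 CPM), a ratio of 1.79 (1.57 to 2.04), and was called higher by the library total (log2 ratio 1.196 against 0.84). With the length trend removed the log2 ratio of SLC36A4 was 0.60 and it was not called. SLC36A2 and SLC36A3, which stand beside SLC36A1 on chromosome 5, had 5 and 17 reads and 0 and 1 read.

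Of the SLC43 genes, 2 of 3 were lower, against 19.8% of all measured genes, and SLC43A1 passed the filter in the hESC library alone. SLC43A1, the gene of LAT3, a facilitator of large neutral amino acids, had 305 and 30 reads (17.6 and 1.10 CPM) and was 15.7-fold lower (10.9 to 24). Its close relative SLC43A2, the gene of LAT4, had 470 and 846 reads (27.0 and 31.1 CPM) and was not called, with a ratio of 1.15 (1.03 to 1.29). SLC43A3, a relative that carries purine nucleobases, had 494 and 279 reads and was 2.77-fold lower (2.39 to 3.22), but was not called with the library total, where its log2 ratio was -1.11 in place of -1.47. The genes of the leucine carriers LAT1, LAT2 and LAT3 were thus lower, and that of LAT4 was at 27.0 and 31.1 CPM.

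Ordered by level per kb, the hESC library was led by SLC3A2 (177 CPM per kb), SLC1A5 (85.8), SLC7A8 (79.0), SLC38A1 (64.1) and SLC7A5 (47.4). The NPC library was led by SLC3A2 (36.2), SLC38A2 (20.1), SLC38A1 (19.8), SLC1A3 (19.4) and SLC38A10 (13.5). The counting intervals of SLC38A2 (19.4 to 20.9), SLC38A1 (19.2 to 20.4) and SLC1A3 (18.6 to 20.2) overlap, so the order of these 3 is not set. With the median transcript length SLC1A3 led the NPC library (140.4 CPM per kb), before SLC38A2 (136) and SLC3A2 (134.6), and SLC7A6 took the place of SLC38A10 among the highest 5. SLC3A2 led the hESC library with either length, while SLC38A2 and SLC7A1 took the places of SLC1A5 and SLC7A5 among the highest 5 there. By the longest transcript, SLC1A3 was at rank 18 of 40 in the hESC library and SLC1A4 at rank 31, and in the NPC library they were at ranks 4 and 8. SLC7A5 went from rank 5 to rank 19 and SLC38A5 from rank 9 to rank 33.

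Genes around these carriers were described from 5 related lists. Some genes are in more than 1 list, so the lists are not independent. ASNS, CHAC1 and GPT2 are in the amino acid response list and the glutamine list. CTH is in the response and the methionine lists, and SESN2 is in the response and the sensing lists. Among 24 other amino acid transporters, 13 were measured, of which 5 (38.5%) were lower and 1 (7.69%) higher, against 19.8% and 19.6% of all measured genes (median log2 ratio -0.79). Among the 11 that passed the filter in both libraries, 4 were lower and none higher, against 1854 and 1388 of 10804 for all genes. SLC6A6, the taurine transporter gene and the most abundant of the list, had 246 and 35.9 CPM and was 6.85-fold lower (6.40 to 7.36). SLC25A13, the gene of the mitochondrial aspartate and glutamate carrier citrin, was 5.02-fold lower (4.61 to 5.48). SLC17A6, which encodes the vesicular glutamate transporter VGLUT2 of neurons, had 0 and 207 reads. It was at least 35.5-fold higher by the bound of its counting interval, and 44.1-fold higher when a floor of 3 reads stood for the hESC library. With the library total 2 genes of this list were lower and 3 higher, with a median of -0.44. With the length trend removed 3 were lower.

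The amino acid response list held ATF4, its upstream kinase gene and its targets. Of 27 measured genes, 18 were lower in the NPC library and none higher. The 19.8% of all measured genes that were lower is the background for this count, and no test was made. Of the 27, 4 passed the filter in the hESC library alone, STC2 among them, and could not have been called higher. Among the 23 that passed in both libraries, 14 were lower, against 1854 of 10804 for all genes. With the library total 13 genes of the list were lower. Over the 27 genes the log2 ratio had a median of -1.43. ATF4 itself, the most abundant, had 421 and 168 CPM and was 2.50-fold lower (2.41 to 2.60). STC2, which encodes stanniocalcin 2, was 17.6-fold lower (14.0 to 22.7), and EIF4EBP1, the gene of the translation repressor 4E-BP1, 11.1-fold lower (9.79 to 12.6). ASNS, the asparagine synthetase gene whose promoter is shown above, had 83.1 and 21.9 CPM and was 3.79-fold lower (3.44 to 4.17). DDIT3 (158 and 237 reads) and TRIB3 (169 and 209), which are stress targets of ATF4, were not called. ATF3 (687 and 258 reads) and CHAC1 (173 and 22), of the same list, were lower. Members often described as ATF4 targets did not all go the way of the list: SLC3A2, SLC7A5, SLC7A1 and SLC1A5 were lower, SLC7A11 was at 25 and 50 CPM, and SLC1A4 was higher.

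**Figure D4:**
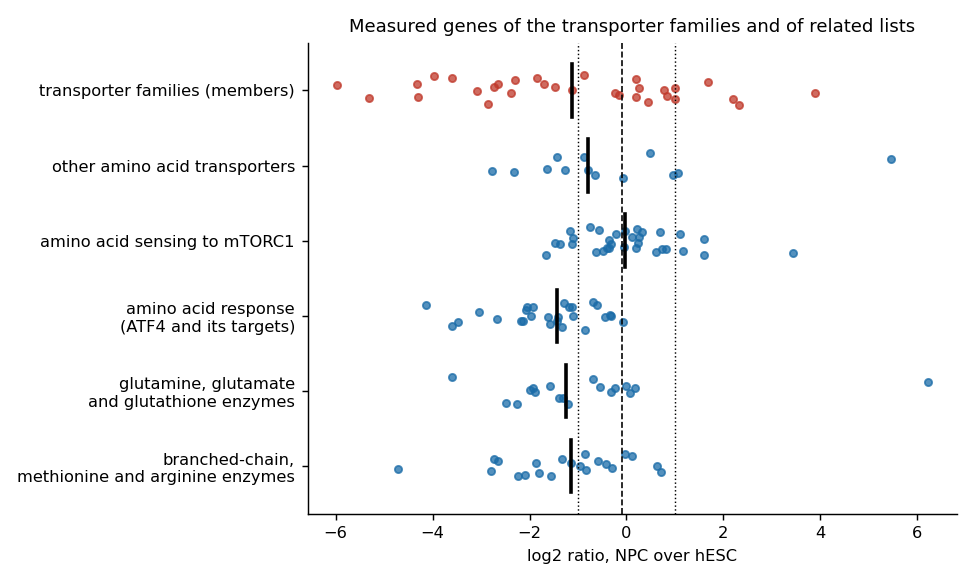
Log2 ratio, NPC over hESC, of each measured gene of the 6 transporter families (red) and of the 5 related lists (blue), with the median of each list as a black bar. The dashed line is the median of all measured genes and dotted lines mark 2-fold. SLC17A6, with 0 reads in the hESC library, is drawn at its fold against the floor of 3 reads. The sensing list is centred at -0.04 and the amino acid response list at -1.43.

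Genes that sense amino acids for mTORC1, the growth kinase complex at the lysosome, were all measured. Of these 32 genes 5 (15.6%) were lower and 3 (9.38%) higher, against 19.8% and 19.6% of all measured genes, and the median log2 ratio was -0.04. With the library total 1 was lower, 6 were higher and the median was 0.32, and with the length trend removed 3 were lower. MTOR, the kinase gene, had 255 and 98.5 CPM, the highest level of the list in the hESC library but not in the NPC library, and was 2.59-fold lower (2.46 to 2.71). SEH1L and MIOS, whose proteins belong to the GATOR2 complex, were 3.15-fold (2.88 to 3.46) and 2.80-fold (2.49 to 3.15) lower. RRAGB, the gene of the small GTPase RagB, had 50 and 851 reads and was 10.8-fold higher (8.17 to 14.8), and SESN3, which encodes a sestrin, was 3.04-fold higher (2.86 to 3.23).

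Among enzymes of glutamine, glutamate and glutathione, 10 of 18 measured genes (55.6%) were lower and 1 (5.56%) higher, against 19.8% and 19.6% of all measured genes (median log2 ratio -1.26). Among the 14 that passed the filter in both libraries, 7 were lower and none higher, against 1854 and 1388 of 10804 for all genes. CHAC1 and GLS2 passed in the hESC library alone and GAD1 in the NPC library alone. With the library total 7 genes of the list were lower, and with a filter of 1 CPM 3 were higher and the median was -0.68. CHAC1, which degrades glutathione, had 173 and 22 reads and was 12.1-fold lower (7.87 to 20.1). GLS2, the gene of a mitochondrial glutaminase, was 5.62-fold lower (4.46 to 7.20). GPX4, the glutathione peroxidase gene and the most abundant of the list, had 329 and 265 CPM and was not called. The higher gene was GAD1, which makes the transmitter GABA from glutamate, with 5 and 640 reads and a ratio of 74.4 (34.9 to 253). GLUL, the glutamine synthetase gene, was not called, at 161.5 and 161.2 CPM.

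Among enzymes of branched-chain amino acids, methionine and arginine, 10 of 21 measured genes (47.6%) were lower, against 19.8% of all measured genes, and none was higher (median log2 ratio -1.14). With the library total 9 were lower. CBS, the cystathionine synthase gene, was 26.2-fold lower (24 to 28.7), and the spermidine synthase gene SRM was 6.94-fold lower (6.43 to 7.51). SMS, the spermine synthase gene and the most abundant of the list, was at 992 and 274 CPM and was 3.63-fold lower (3.53 to 3.73). BCAT1, the cytosolic transaminase gene for branched-chain amino acids, which was named after its values were seen, was 6.29-fold lower (5.95 to 6.67).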

How the data were processed

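The authors deposited whole-number read counts for each gene symbol, a file per library. TopHat and edgeR with build hg19 are named, per the submitters' processing notes, with no role stated. For the counts, the program, strand setting, annotation and handling of multi-mapped reads were not given in the sources used here. Of 25737 rows, symbols on several rows (286, no member among them) kept the row with most reads. Library sizes were scaled with TMM factors (0.884 for hESC, 1.13 for NPC) from edgeR 4.0.16 in R 4.3.3. Ratios had 0.5 added to each count and exact 95% intervals (Clopper-Pearson on the NPC share of a gene's reads). Intervals of ratios within a library are exact conditional ones for an odds ratio. The code was tested on simulated data. No p-value was computed, since each group had 1 library.

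Lengths came from GENCODE 29 and overlapping exons too (6 measured members overlap a gene of the files, and not every such gene is reported here). Every measured member is named. Of each related list, the 2 genes each way with the near bound farthest from no change and the most abundant one (highest CPM in either library) are named. ASNS, DDIT3, TRIB3, ATF3, GLUL and BCAT1 were added after seeing their values. The members and lists were chosen with earlier results of these data known. Alternatives were other scalings (library total, DESeq2 1.42.0, upper quartile), filters (1 CPM, 20 CPM, none), bounds, summed rows, removal of mitochondrial and ribosomal protein genes, log2 of CPM + 1, median transcript length and removal of the length trend (lowess in statsmodels 0.14.6). Tables were handled with pandas 2.3.3 and numpy 2.4.6, and intervals with scipy 1.17.1, in Python 3.11.15.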

Additional observations from a re-analysis of the deposited data

How the results depend on the processing

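No paired analysis was possible because each group has 1 library. The count of lower members was between 12 and 16 under every alternative, against 15. The count of higher members was 4 and moved to 7 with the library total, to 2 with a filter of 20 CPM and to 2 with a 4-fold bound. It was 3 to 5 under the others. The count not called moved from 12 to 7 with the 20 CPM filter, where 21 members were measured. It was 18 with no filter and 17 with the 4-fold bound. The median log2 ratio of the members lay between -1.69 (20 CPM filter) and -0.19 (no filter, 38 members) and stayed negative. Of 31 measured members, 24 kept their call under the other scalings, the summed rows, the removal of mitochondrial and ribosomal genes and the removal of the length trend. The other 7 are SLC7A7, SLC7A11, SLC36A4, SLC38A10, SLC43A3, SLC38A3 and SLC1A2. None of the 19 called members changed sign under the 7 alternatives that recompute ratios. Of the 217 member ratios these gave, 40 lay outside the main counting interval, 21 of them with the library total. The uncalled SLC36A1 (0.21) and SLC38A7 (0.12) turned positive with the library total, and SLC7A6 (-0.06) and SLC43A2 (-0.12) turned negative with the length trend removed. With median in place of longest transcript length, 3 of the 5 members highest per kb in the hESC library were shared and 4 of 5 in the NPC library; the cause was not tested. Depth limits the 9 members below the filter, where ratios are not given.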
